A study of Mus musculus with 19 samples.

Results

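Endothelial cells line the arteries, capillaries, veins and lymphatic vessels of the kidney. The endothelial genes described here are 31 genes fixed by name, among 54146 gene identifiers in the files. They cover junction and surface proteins, vascular receptors, transcription factors, markers of single vascular beds, secreted products and lymphatic genes. All 31 were found, and 30 reached a mean of 1 TPM (a transcript abundance corrected for length, with the same total in each library) over the 5 RNA libraries and were tested. Lyve1 did not. The filter uses the mean of all libraries, so a gene could pass it through 1 group.

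The libraries came from whole kidneys of B6C3F1/J mice at postnatal day 21. The 3 controls carried floxed Dnmt3a and Dnmt3b (Dnmt3ab f/f) and no Cre. The 2 KspCre DKO libraries carried the same floxed genes and KspCre, a Cre under the Ksp-cadherin (Cdh16) promoter, which is active in tubule epithelium and is not expected in endothelium. Dnmt3a and Dnmt3b encode the de novo DNA methyltransferases, which methylate DNA at unmethylated sites, and the question was what losing them does to the developing kidney. Whether each library is a different mouse is not stated in the labels, so the spread behind a p-value here may be technical. The 14 bisulfite samples are not analysed here.

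As background, kidney endothelium differs by place. Glomerular capillaries are fenestrated and filter plasma, peritubular capillaries take up what the tubules reabsorb, and arteries, vasa recta and lymphatics have programs of their own. Vascular endothelial growth factor (VEGF) from podocytes and tubules acts on the receptors Kdr and Flt1, angiopoietins act on Tek, and the SoxF factors Sox7, Sox17 and Sox18 direct vessel development and arterial identity. In whole-kidney RNA, fewer endothelial cells and less RNA per endothelial cell cannot be told apart.

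Some libraries stood apart. KspCre DKO replicate 2 had 14710 genes above 0, against 18488 to 20510 in the other 4, and 30.98% of its TPM in mitochondrially encoded genes, against 18.2% to 23.2%. Control replicate 2 held the lowest control value for 28 of the 30 tested endothelial genes. Podocyte markers were also lowest there, with a summed level of 251 TPM against 525 and 636 TPM in the other controls and 406 and 336 TPM in the KspCre DKO libraries. Dnmt3a itself overlapped between groups (13.2, 18.97 and 15.5 against 9.98 and 14.2 TPM), and so did Dnmt3b, whose mean was slightly higher in KspCre DKO (1.82, 2.86 and 1.98 against 2.29 and 3.25 TPM), so neither level checks the labels. TPM hold no read number, and depth is therefore unknown.

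The endothelium-defining genes Pecam1 and Cdh5 were present in all 5 libraries. By mean control level, a TPM scale corrected for length, Fabp4, Egfl7 and Plvap led the list at 241 ± 66.8, 226 ± 66.1 and 146 ± 31.2 TPM (SD, n = 3). Flt4, Sox7 and Prox1 stood at 3.22 ± 0.55, 2.04 ± 0.75 and 1.76 ± 0.79 TPM. Lyve1 reached at most 0.30 TPM in any library. The plot of levels by library gives every member.

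**Figure D1:**
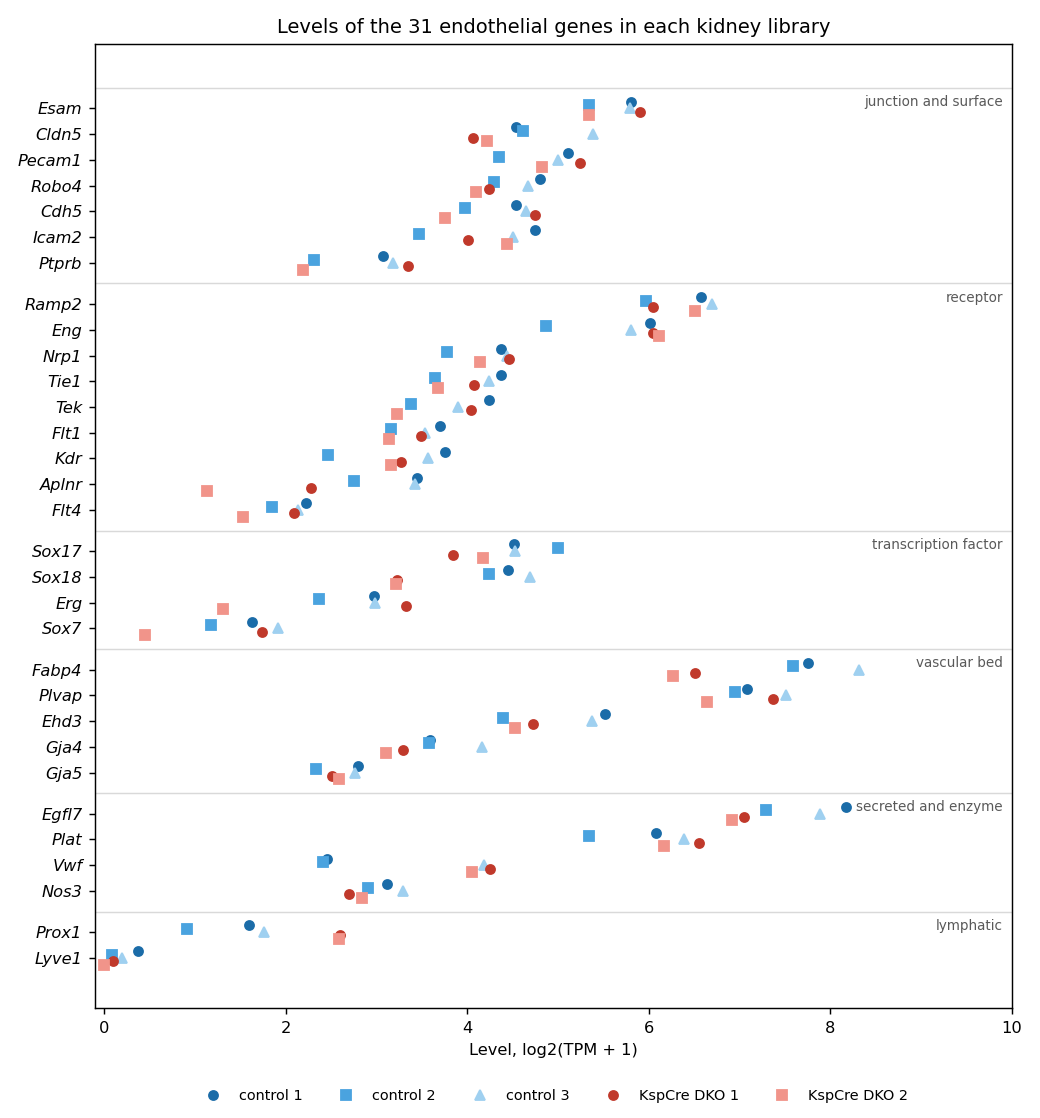
Level of each of the 31 endothelial genes as log2(TPM + 1) in 3 control (blue) and 2 KspCre DKO (red) libraries, 1 point per library, grouped by role. Both KspCre DKO points of Fabp4, Sox18 and Aplnr lie left of all control points, both of Prox1 lie right of them, and those of Pecam1 and Cdh5 overlap the controls.

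None of the 30 tested endothelial genes passed the test between the groups (limma, adjusted p below 0.05). Over all 13963 tested genes 0.165% passed. At an unadjusted p below 0.05, 4 members were lower in KspCre DKO, namely Fabp4, Sox18, Aplnr and Egfl7, and 1, Prox1, was higher. The shares over all tested genes at that threshold were 6.15% lower and 4.16% higher. The log2 fold change, KspCre DKO minus control on the log2(TPM + 1) scale, was below 0 for 24 of 30 members (80.0%) and for 61.7% of all tested genes. That count was 19 of 30 under each of 3 other scalings of the libraries and 14 of 30 without KspCre DKO replicate 2. The member median was −0.19, against −0.14 for all tested genes. Leaving out 1 KspCre DKO library gave −0.50 (replicate 1) and 0.01 (replicate 2), with all-gene medians of −0.39 and 0.13. Leaving out control replicates 1, 2 or 3 gave −0.07, −0.42 and −0.12, with all-gene medians of −0.12, −0.17 and −0.11.

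The members' log2 fold changes spread from −1.50 (Aplnr) to 1.17 (Prox1). Both KspCre DKO values lay below all 3 control values for 9 members: Fabp4, Sox18, Aplnr, Egfl7, Cldn5, Sox17, Gja4, Robo4 and Nos3. Over all tested genes that share was 15.6%. Both lay above for 2 members, Prox1 and Eng, and for 10.5% of all tested genes. Of the 9, Fabp4, Sox18, Aplnr and Gja4 also lay below the controls under each of those 3 scalings, and of the 2, Prox1 lay above under each. The other 5 of the 9 (Egfl7, Cldn5, Sox17, Robo4 and Nos3) and Eng overlapped under at least 1 of them.

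**Figure D2:**
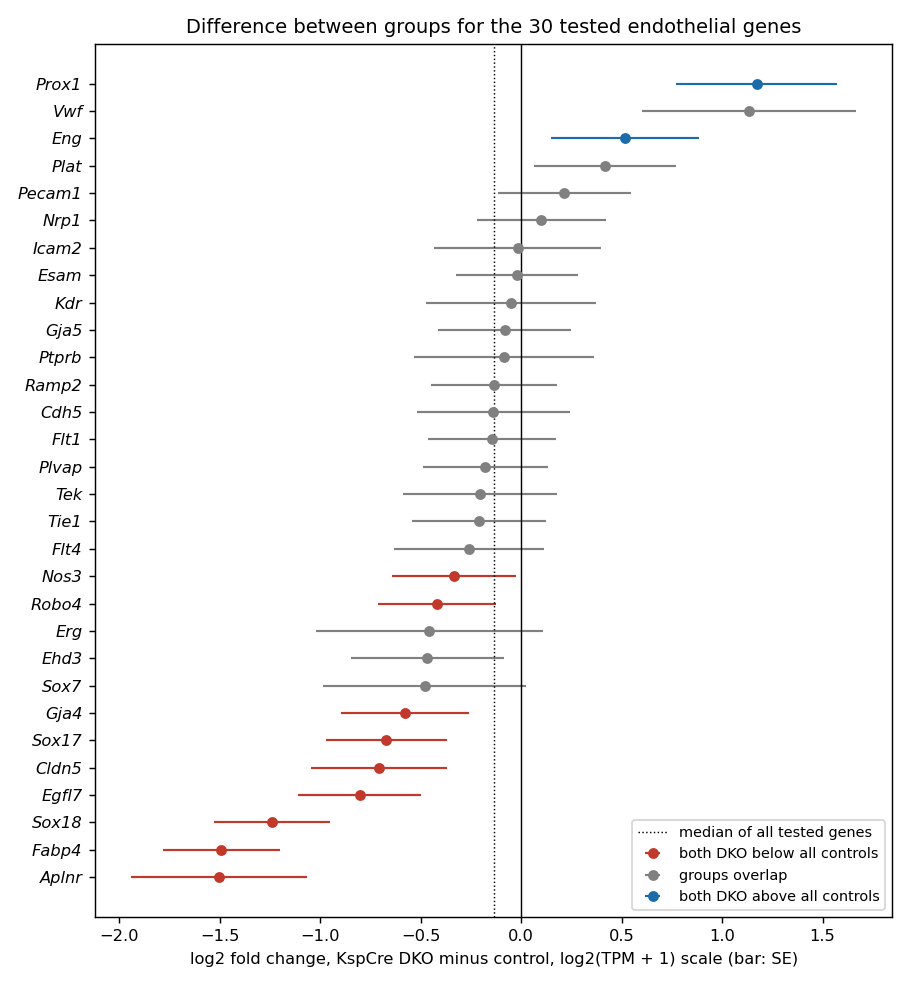
Log2 fold change with its standard error (SE) for the 30 tested endothelial genes, sorted, KspCre DKO (n = 2) minus control (n = 3). Red marks the 9 genes with both KspCre DKO values below all controls, blue the 2 above, and the dotted line the median of all tested genes at −0.14; none passed adjusted p below 0.05.

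RefSeq promoter windows (assembly GRCm38.p6) matched 15 of the 31 genes, among them 4 of the 9 with both KspCre DKO values below the controls: Egfl7, Robo4, Cldn5 and Gja4. The 250 bases upstream of their starts are shown because these 4 genes shared that direction. Each reads 5′ to 3′ on its gene's strand, and capitals mark AGGAAG or its reverse complement CTTCCT, a sequence type bound by ETS factors such as Erg. The windows are chr2:26580833-26581082 (plus strand) for Egfl7, chr9:37401722-37401971 (plus) for Robo4, chr16:18776597-18776846 (plus) for Cldn5 and chr4:127314040-127314289 (minus) for Gja4. The Robo4 window ends inside the gene's interval given below, because the table counts from a later start.
Egfl7: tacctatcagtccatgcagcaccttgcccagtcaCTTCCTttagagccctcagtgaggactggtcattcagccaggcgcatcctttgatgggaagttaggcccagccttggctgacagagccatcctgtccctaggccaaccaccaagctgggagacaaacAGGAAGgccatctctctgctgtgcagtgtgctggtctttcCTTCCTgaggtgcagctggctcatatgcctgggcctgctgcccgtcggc
Robo4: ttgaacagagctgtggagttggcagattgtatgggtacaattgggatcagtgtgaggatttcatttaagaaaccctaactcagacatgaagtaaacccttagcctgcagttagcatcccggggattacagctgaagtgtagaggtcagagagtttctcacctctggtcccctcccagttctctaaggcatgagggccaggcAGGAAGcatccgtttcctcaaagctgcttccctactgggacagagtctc
Cldn5: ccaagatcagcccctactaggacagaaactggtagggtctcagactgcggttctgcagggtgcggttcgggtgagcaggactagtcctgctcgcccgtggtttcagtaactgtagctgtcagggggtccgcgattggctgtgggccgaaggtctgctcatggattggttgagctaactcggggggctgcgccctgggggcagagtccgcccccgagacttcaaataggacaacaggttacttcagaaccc
Gja4: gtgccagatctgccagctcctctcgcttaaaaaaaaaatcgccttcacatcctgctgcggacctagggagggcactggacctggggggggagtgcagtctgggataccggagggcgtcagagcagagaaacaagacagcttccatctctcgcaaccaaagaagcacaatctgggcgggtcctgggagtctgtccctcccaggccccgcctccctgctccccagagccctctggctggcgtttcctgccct

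The Egfl7 window held 3 such matches and the Robo4 window 1, while those of Cldn5 and Gja4 held none. Of the 15 members with a window, 7 (46.7%) held at least 1 match, against 29.2% of all 27025 windows. The 7 were not all genes of 1 direction, since Eng and Nrp1, with log2 fold changes above 0, were among them. ACAAT or ATTGT, a SOX-type sequence, was found in 3 of 15 (20.0%) and in 28.2% of all windows. AGATAA (either strand), of the type that GATA factors bind, was in none of the 15 and in 10.2% of all windows. The median share of G and C bases was 60.4% in the 15 windows and 52% in all windows. The part of base composition in these shares and in the CpG numbers was not tested. The 15 windows had a median of 11 CpG sites, the dinucleotide that DNA methyltransferases act on, with a range of 2 to 23, against a median of 6 in all windows. Egfl7 and Robo4 lay at the low end with 3 and 2, and Cldn5 and Gja4 had 12 and 9. Prox1 and Eng, with both KspCre DKO values above the controls, had 20 and 4. A match describes letters in a window and not a bound site.

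The junction and surface group held 7 genes, and none passed the test. Pecam1 (chromosome 11, 106654213 to 106715281), the platelet endothelial adhesion molecule, measured 33.5, 19.4 and 30.98 TPM across control replicates 1, 2 and 3 against 36.8 and 27.4 TPM in KspCre DKO replicates 1 and 2, the order kept below. The groups overlapped, and the log2 fold change was 0.21 ± 0.33 (SE; adjusted p = 0.854; 95% interval −0.54 to 0.97). Cdh5 (chromosome 8, 104101613 to 104144504), the VE-cadherin of endothelial junctions, measured 22.2, 14.7 and 24.1 against 25.8 and 12.5 TPM. Its KspCre DKO values were the highest and the lowest of the 5 (adjusted p = 0.924; log2 fold change −0.14 ± 0.38, SE). The 95% interval of the Cdh5 difference ran from −1.01 to 0.74.

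Cldn5 (chromosome 16, 18776847 to 18778262), the claudin of endothelial tight junctions, measured 22.3, 23.4 and 40.7 TPM across the controls against 15.7 and 17.6 TPM in KspCre DKO. The groups did not overlap, but the control spread came from replicate 3 (adjusted p = 0.524; log2 fold change −0.71 ± 0.34, SE). Robo4 (chromosome 9, 37401902 to 37414023), a receptor that stabilises vessels, measured 26.8, 18.7 and 24.5 against 17.9 and 16.1 TPM (adjusted p = 0.658). Control replicate 2 and KspCre DKO replicate 1 lay close together there. Esam and Icam2, 2 adhesion molecules, and Ptprb, the vascular phosphatase that acts on Tek, had log2 fold changes of −0.02, −0.02 and −0.08 with adjusted p of at least 0.962. Their signs turned under other scalings.

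The receptor group held 9 genes, with 7 below 0, a median of −0.15 and none past the test. Aplnr (chromosome 2, 85136360 to 85139923), the apelin receptor, which is found on sprouting and venous endothelium, measured 9.94, 5.72 and 9.73 TPM across the controls against 3.85 and 1.19 TPM in KspCre DKO. Both KspCre DKO values lay below the lowest control, at a mean of 2.52 ± 1.88 (SD, n = 2) against 8.46 ± 2.38 TPM (SD, n = 3). The log2 fold change was −1.50 ± 0.44 (SE; adjusted p = 0.282) and it moved to −0.93 when KspCre DKO replicate 2 was left out and to −2.08 when replicate 1 was. At this low level it also moved with the pseudocount, from −0.85 with 5 TPM to −1.88 with 0.1 TPM.

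The VEGF receptors overlapped between groups. Kdr (chromosome 5, 75932827 to 75979072), the main signalling receptor, measured 12.5, 4.52 and 10.9 against 8.62 and 7.92 TPM, so that the KspCre DKO values lay inside the control range (adjusted p = 0.976; log2 fold change −0.05 ± 0.42, SE). Flt1, which binds VEGF and limits its action, had a log2 fold change of −0.15 ± 0.32 (SE). Flt4 (chromosome 11, 49609679 to 49652739), the receptor for VEGF-C, measured 3.67, 2.60 and 3.38 against 3.25 and 1.89 TPM (adjusted p = 0.844). Nrp1 (chromosome 8, 128358591 to 128505476), a coreceptor for VEGF and semaphorins that other kidney cells also express, measured 19.8, 12.7 and 20.7 against 20.9 and 16.7 TPM (adjusted p = 0.936).

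The angiopoietin receptors Tek and Tie1 had log2 fold changes of −0.20 ± 0.38 and −0.21 ± 0.33 (SE), with overlapping groups. Ramp2, the partner of the adrenomedullin receptor, had −0.13 ± 0.31. Eng (chromosome 2, 32646595 to 32682669), endoglin, a coreceptor for BMP9 and TGF-beta, measured 63.5, 28.2 and 55.0 TPM across the controls against 64.9 and 68.2 TPM in KspCre DKO. Both KspCre DKO values lay above the controls, but the highest control came close to the nearer of them (adjusted p = 0.665; log2 fold change 0.52 ± 0.37, SE; 0.17 without control replicate 2).

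All 4 transcription factor genes had a log2 fold change below 0, with a median of −0.58, and none passed the test. Sox18 (chromosome 2, 181669837 to 181671640), the SoxF factor of blood and lymphatic vessel development, measured 20.9, 17.9 and 24.8 TPM across the controls against 8.36 and 8.30 TPM in KspCre DKO. The KspCre DKO values nearly coincided and lay well under the lowest control (8.33 ± 0.042 against 21.2 ± 3.45 TPM, SD; adjusted p = 0.188; log2 fold change −1.24 ± 0.29, SE). Leaving out libraries gave −1.35 to −1.13. Sox17 (chromosome 1, 4490928 to 4497426), the arterial SoxF factor, measured 21.9, 30.9 and 22.1 against 13.3 and 17.1 TPM, without overlap (adjusted p = 0.501; log2 fold change −0.67 ± 0.30, SE). It was 1 of the 2 tested members whose lowest control was not replicate 2.

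The third SoxF gene did not share that separation. Sox7 (chromosome 14, 63943706 to 63950732) measured 2.09, 1.27 and 2.77 TPM across the controls against 2.33 and 0.37 TPM in KspCre DKO (adjusted p = 0.771). Erg (chromosome 16, 95359169 to 95586600), an ETS factor that maintains endothelial identity, measured 6.82, 4.14 and 6.93 against 8.99 and 1.48 TPM (adjusted p = 0.811). For both genes KspCre DKO replicate 1 lay near or above the controls and replicate 2, where the fewest genes were above 0, held the lowest value of all 5. Without KspCre DKO replicate 2 their log2 fold changes were 0.16 and 0.55.

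Among markers of single vascular beds, all 5 had a log2 fold change below 0 and none passed the test. Fabp4 (chromosome 3, 10204342 to 10208616), a fatty acid binding protein of capillary endothelium and adipocytes, had the smallest p of the list. It measured 214, 191 and 317 TPM across the controls against 90.3 and 75.9 TPM in KspCre DKO, a mean 2.89 times as high in the controls. The groups lay far apart, but the adjusted p was 0.129 (log2 fold change −1.49 ± 0.29 SE; 95% interval −2.16 to −0.82), and it ranged from 0.0581 to 0.542 over the alternatives. Of 12 listed adipocyte markers, 6 were tested, none passed and 5 were below 0. The summed level of the list was 145 to 160 TPM in the controls, against 133 and 40.6 TPM in KspCre DKO, a sum led by Acsl1 and Lpl. The adipocyte-defining genes Adipoq and Plin1 were too low to be tested. Adipoq measured 0.74, 0.16 and 0.26 against 0.06 and 0 TPM, with both KspCre DKO values below the controls. Plin1 measured 0.59, 0.03 and 0 against 0 and 0 TPM. The part of this list in the Fabp4 result was not tested.

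Plvap (chromosome 8, 71497753 to 71511806), which forms the diaphragms of fenestrated capillaries, measured 135, 123 and 182 against 164 and 98.9 TPM, with overlap (adjusted p = 0.872; log2 fold change −0.18 ± 0.31, SE). Ehd3 (chromosome 17, 73804841 to 73832093), a marker of glomerular endothelium, measured 44.8, 19.9 and 40.4 against 25.4 and 22.1 TPM (adjusted p = 0.702). Its KspCre DKO values lay between control replicate 2 and the other controls, as did the summed podocyte markers, which share the glomerulus. That order was not particular to the glomerulus, since Kdr, Icam2, Ramp2, Tie1 and Gja5 had it too. A shared glomerular part was not tested. The arterial connexin gene Gja4 (chromosome 4, 127311420 to 127314039) measured 11.1, 10.96 and 16.9 against 8.79 and 7.61 TPM, without overlap (adjusted p = 0.584; log2 fold change −0.58 ± 0.32, SE). Gja5, the other arterial connexin gene, had −0.08 ± 0.33 with overlapping groups. Whether these connexin genes differed from each other in their response was not tested.

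The secreted and enzyme group went both ways, with 2 genes below and 2 above 0. Egfl7 (chromosome 2, 26581083 to 26592682), a matrix protein secreted by endothelium that guides vessel tube formation, measured 287, 156 and 236 TPM across the controls against 131 and 119 TPM in KspCre DKO. Its groups did not overlap (125 ± 8.49 against 226 ± 66.1 TPM, SD; adjusted p = 0.415; log2 fold change −0.80 ± 0.31, SE), although they did after quantile normalization. Nos3 (chromosome 5, 24364816 to 24384474), endothelial nitric oxide synthase, measured 7.64, 6.47 and 8.82 against 5.48 and 6.15 TPM (adjusted p = 0.73). Control replicate 2 and KspCre DKO replicate 2 were close, so this separation was thin.

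Vwf (chromosome 6, 125552948 to 125686679), the clotting factor stored by endothelium and platelets, measured 4.50, 4.33 and 17.2 TPM across the controls against 18.1 and 15.6 TPM in KspCre DKO. Control replicate 3 lay with the KspCre DKO libraries, and the other controls far below them (adjusted p = 0.517; log2 fold change 1.13 ± 0.53, SE; 1.72 without control replicate 3, adjusted p = 0.373). The 9 platelet markers, of which 3 were tested, 2 above and 1 below 0, summed to 18.6 to 20.2 TPM in the controls, against 25.8 and 21.8 TPM in KspCre DKO. The platelet marker Pf4, the 1 below 0, measured 7.91, 4.50 and 8.48 against 1.78 and 2.79 TPM. Ppbp, a platelet marker too low to be tested, went the other way, with 0.13, 0.34 and 0 against 0.68 and 2.22 TPM. Itga2b, 1 of the 2 above 0 and the largest part of the sum in each library, measured 8.93, 14.4 and 8.62 against 22.8 and 10.7 TPM. The part of platelet RNA in the Vwf result was not tested. Plat (chromosome 8, 22757722 to 22782848), tissue plasminogen activator, measured 66.7, 39.5 and 82.9 against 92.6 and 70.6 TPM, with overlap (adjusted p = 0.714).

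The lymphatic pair was low. Prox1 (chromosome 1, 190118035 to 190170827), the master factor of lymphatic identity, measured 2.02, 0.88 and 2.39 TPM across the controls against 5.06 and 5.02 TPM in KspCre DKO. Both KspCre DKO values were above the highest control (5.04 ± 0.028 against 1.76 ± 0.79 TPM, SD; adjusted p = 0.366; log2 fold change 1.17 ± 0.40, SE), and the value ranged from 0.58 with a pseudocount of 5 TPM to 1.57 with 0.1 TPM. Lyve1 (chromosome 7, 110850607 to 110862953), a hyaluronan receptor of lymphatic vessels and some macrophages, measured 0.30, 0.06 and 0.15 against 0.07 and 0 TPM and was not tested. Of 8 further lymphatic markers 5 were tested, 2 above and 3 below 0, with a median of −0.08. Their groups overlapped for all 5, and their summed level was 20.0 to 40.3 TPM in the controls, against 27.9 and 37.5 TPM in KspCre DKO. The 12 collecting duct markers, all tested, summed to 1173 to 1228 TPM in the controls, against 2728 and 2697 TPM in KspCre DKO, a sum led by Aqp2. None passed, 7 (58.3%) had both KspCre DKO values above all controls and 3 (25%) had both below. Over all tested genes those shares were 10.5% and 15.6%. The part of the collecting duct markers in the Prox1 result was not tested.

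To show how members varied among themselves, each was set against the mean log2(TPM + 1) of Pecam1, Cdh5, Tie1 and Esam in the same library, with no test. This reference was 4.95, 4.33 and 4.92 in the controls and 4.99 and 4.40 in KspCre DKO. In both groups replicate 2 was the lower, and the groups overlapped. Relative to it, Aplnr differed by −1.46, Fabp4 by −1.45, Sox18 by −1.20 and Egfl7 by −0.76 between group means. The same reference was taken from every gene in a library, so these differences are the log2 fold changes above, all shifted by the same amount. They repeat that result in the same order, and only the overlap between libraries could change. These 4 members, together with Robo4, Flt4 and Tie1, had both KspCre DKO values below all controls on this scale, as did 16.6% of all tested genes. Prox1, Plat and Pecam1 had both above, by 1.21, 0.46 and 0.25, as did 9.12% of all tested genes, although Pecam1 and Tie1 are themselves part of the reference. The balance depended on the reference: with the mean of all 7 junction and surface members, 4 lay below (Aplnr, Fabp4, Sox18 and Egfl7) and 6 above (Prox1, Plat, Pecam1, Eng, Nrp1 and Vwf). For that reference the share of all tested genes is given in the last paragraph, for both directions together. Neither count was therefore set against a share of its own direction. The relative Aplnr values were close within the controls, at −1.50, −1.58 and −1.50, against −2.71 and −3.27 in KspCre DKO.

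**Figure D3:**
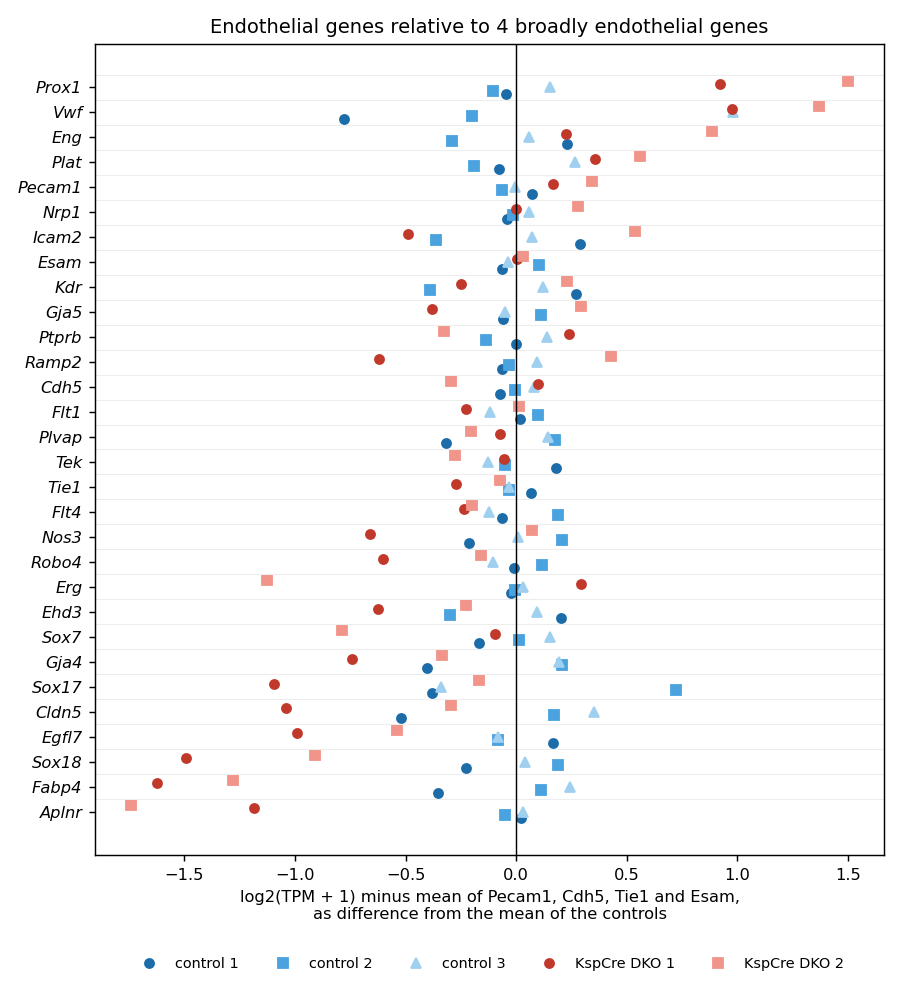
Each tested endothelial gene relative to the mean of Pecam1, Cdh5, Tie1 and Esam in the same library, on the log2(TPM + 1) scale, drawn as the difference from the control mean, 1 point per library. Aplnr, Fabp4, Sox18 and Egfl7 sit at the bottom with both KspCre DKO points left of all controls, and Prox1 at the top with both right of them. The order of the genes is that of their log2 fold changes.

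A list of 44 other endothelial genes, not members, was read the same way. Of 42 tested none passed, 31 were below 0 and 11 above, and the median was −0.15. Both KspCre DKO values lay below all controls for 7 (16.7%) and above for 2 (4.76%). Over all tested genes those shares were 15.6% and 10.5%, and the median was −0.14, so the list lay near all genes in its share below and its median. The 2 above were Slco2a1 and Efnb2, with log2 fold changes of 0.65 and 0.44 (adjusted p of 0.52 and 0.663). The 4 genes of this list with the smallest p all lay below the controls, and Slco2a1 came next by p. Cd36, a fatty acid transporter of capillaries, measured 11.6, 4.64 and 7.58 against 3.30 and 3.11 TPM (adjusted p = 0.431; log2 fold change −1.01 ± 0.40, SE). Cd93, an adhesion receptor of angiogenic vessels, Acvrl1, the endothelial BMP9 receptor that works with Eng, and Myct1 had log2 fold changes of −0.82, −0.64 and −0.86 (adjusted p of 0.503, 0.514 and 0.518).

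The ligands that act on these receptors were read from a list of 23 genes, of which 19 were tested and none passed. There 12 were below 0 and 7 above, with a median of −0.39. Apln, the apelin peptide for Aplnr, had the smallest p, with 4.68, 2.71 and 5.24 TPM across the controls against 1.77 and 0.82 TPM in KspCre DKO (adjusted p = 0.376; log2 fold change −1.18 ± 0.41, SE). Its groups did not overlap, as for its receptor. The larger KspCre DKO value of either gene lay in replicate 1, as it did for 23 of the 30 tested members. Over all tested genes the median of replicate 2 minus replicate 1 was −0.54 on the log2(TPM + 1) scale, so this order was not particular to the pair. Apela, a second ligand of Aplnr that kidney epithelium makes, was chosen after its values were seen. It measured 207, 240 and 244 against 318 and 300.2 TPM, on the other side of the controls (adjusted p = 0.58; log2 fold change 0.42 ± 0.23, SE).

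The semaphorins Sema3c and Sema3f, ligands of neuropilins, measured 7.09, 7.72 and 9.92 against 12.4 and 19.2 TPM and 21.8, 14.2 and 18.0 against 26.2 and 32.9 TPM (adjusted p = 0.425 and 0.484). Pgf, a ligand of Flt1, measured 0.54, 0.43 and 0.91 against 2.64 and 1.52 TPM (adjusted p = 0.528). These 3 ligands had both KspCre DKO values above the controls. Of the 19 tested ligands, 4 lay above (21.1%), these and Apela. Another 5 lay below (26.3%), namely Apln, Vegfb, Adm2, Slit2 and Edn1. Over all tested genes the shares were 10.5% above and 15.6% below. Vegfa, also chosen after its values were seen, measured 291, 305 and 304 TPM across the controls, 299 TPM in KspCre DKO replicate 1 and 81.8 TPM in replicate 2 (adjusted p = 0.545).

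Cells that neighbour the endothelium gave different pictures. Of 16 tested mural cell markers, which mark pericytes and smooth muscle, none passed, 15 were below 0 and the median was −0.64. Their summed level was 492, 177 and 366 TPM across the controls and 189 and 190.1 TPM in KspCre DKO, so control replicate 2 lay with the KspCre DKO libraries. Pdgfrb, the pericyte receptor, measured 17.2, 13.7 and 23.0 against 9.31 and 10.2 TPM. Of 16 podocyte markers 13 were below 0, with a median of −0.17. All 11 tested macrophage markers were below 0, with a median of −0.67 and a summed level of 111 to 176 TPM against 77.2 and 74.3 TPM. Thick ascending limb markers summed to 2435 to 2598 TPM in the controls, against 1417 and 771 TPM in KspCre DKO. The part of these shifts in the endothelial values was not tested.

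**Figure D4:**
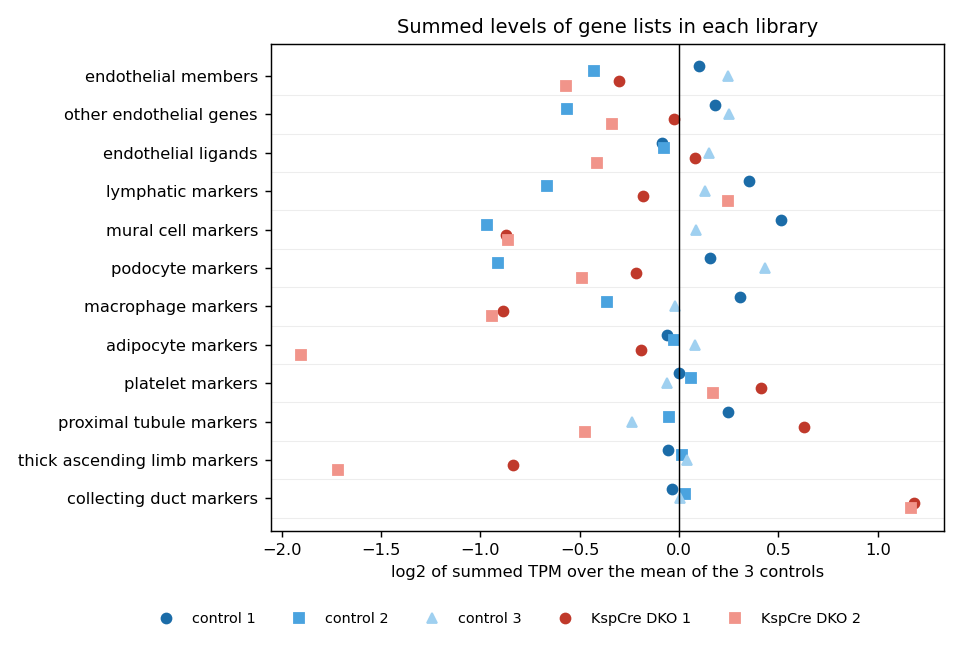
Summed TPM of the endothelial members and of 11 other gene lists in each library, as log2 of the ratio to the mean of the 3 controls, 1 point per library. Control replicate 2 lies with or below the KspCre DKO libraries for mural cell and podocyte markers. The sums of thick ascending limb and collecting duct markers separate the groups in opposite directions. Even so, 3 of 12 collecting duct markers had both KspCre DKO values below all controls, as did 15.6% of all tested genes.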

How the data were processed

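Poly(A) RNA of whole kidneys was sequenced, per the labels' protocols. The deposited values are TPM per gene, and RSEM 1.3.1, STAR 2.2.1, Bismark 0.19.1, Trim Galore 0.5.0 and the build mm10 are listed, without roles, per the submitters' processing notes. Neither annotation release nor strand setting is given in the sources used here. Of 54146 identifiers 54079 were paired with a symbol, ignoring the version number, 52480 of them in the same version. Positions and promoter windows are RefSeq's, matched by symbol.

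Groups were taken from titles. A mean of 1 TPM or more over the 5 libraries left 13963 genes. Their log2(TPM + 1) values were tested two-sided with limma 3.58.1 (R 4.3.3; eBayes with trend), with Benjamini-Hochberg adjustment over all of them, and called at adjusted p below 0.05. The fit was checked on simulated data in which every gene and library had the same spread. That check does not cover libraries that stand apart, as some do here. Fold changes on this scale understate those of low genes. The members and gene lists were chosen with earlier results of these data known. All 5 values are printed for 8 anchor members, the 3 of smallest p in each role, those of opposite sign and those without overlap, and in other endothelial lists for up to 4 of smallest p. Values printed for Erg, Apela, Vegfa, Pdgfrb and further marker genes were chosen after they were seen. Alternatives were other pseudocounts, filters, scalings, variance settings, array weights, a replicate block and leaving out libraries.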

Additional observations from a re-analysis of the deposited data

How the results depend on the processing

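No endothelial gene was called under any of the 17 alternatives, and the smallest adjusted p of any member was 0.0502 (Aplnr, without KspCre DKO replicate 1, which leaves that group 1 library taken to vary like the controls). The sign held in each alternative for 15 of the 30 tested members, among them Fabp4, Sox18, Aplnr, Egfl7, Cldn5, Sox17, Robo4, Gja4, Nos3, Eng and Prox1. Of 23 calls over all genes (14 higher, 9 lower), there were 14 with a pseudocount of 0.1, 39 with 5, 4 with no filter, 42 with quantile normalization (35 higher, 7 lower), 36 without mitochondrially encoded genes, 9 without trend, 5 with array weights, 6 to 560 leaving out 1 library and 3 without control replicate 2 and KspCre DKO replicate 2, a setting chosen after seeing the data. Median-of-ratios scaling gave 23 higher and 7 lower. It moved the all-gene median from −0.14 to −0.03, and quantile normalization to −0.02. The replicate block gave 75 calls, none of them a member. What the replicate numbers stand for is not stated in the titles. Deviations from the group mean correlated at 0.09 for replicates 1 and 0.03 for replicates 2. Those of control replicate 3 and KspCre DKO replicate 2 correlated at 0.07. With 2 KspCre DKO libraries the deviations are mirror images, so these values cannot decide whether libraries were paired. Control replicate 3, which has no partner, adds nothing to the fold changes of the block.

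The share of all tested genes without overlap stands in parentheses beside each count of members. The 11 members without overlap (26.1%) became 7 with quantile normalization (31.1%), 11 to 19 leaving out 1 library (31.3% to 74.5%) and 27 without both replicates 2 (76%). Relative to the reference, the 10 (25.8%) became 12 to 22 leaving out 1 library (31.5% to 59.2%) and 24 without both replicates 2 (75.7%). With all junction and surface members as reference they stayed 10 in number (22.6%), but 6 above and 4 below in place of 3 and 7. Signs turned with median-of-ratios scaling for Kdr (0.0629), Esam (0.10), Ptprb (0.00927), Gja5 (0.0258) and Icam2 (0.10). With quantile normalization they turned for Kdr (0.00663), Plvap (0.00443), Esam (0.12), Icam2 (0.0596) and Ramp2 (0.0495). Without mitochondrially encoded genes they turned for Kdr (0.0558), Esam (0.0886), Ptprb (0.00702), Gja5 (0.0135) and Icam2 (0.0932), and with the replicate block for Kdr (0.10), Esam (0.0517), Ptprb (0.0787), Icam2 (0.11) and Ramp2 (0.00617). Leaving out libraries gave ranges across 0 of −0.0205 to 0.42 for Pecam1, −0.45 to 0.19 for Kdr, −0.32 to 0.0279 for Flt1, −0.54 to 0.0200 for Flt4, −0.63 to 0.36 for Cdh5, −0.61 to 0.20 for Tek, −0.54 to 0.18 for Plvap, −0.30 to 0.26 for Esam, −1.12 to 0.16 for Sox7, −0.66 to 0.49 for Ptprb, −1.46 to 0.55 for Erg, −0.11 to 0.26 for Nrp1, −0.62 to 0.24 for Icam2 and −0.58 to 0.10 for Ramp2. The cause was not tested.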
